A study of Mus musculus with 2 samples.

Results

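The insulin-like growth factor (IGF) system was followed through 7 genes in hindlimb cells of mouse embryos at E11.5. They are the ligand gene Igf1, the receptor genes Igf1r and Igf2r, and the binding protein genes Igfbp2, Igfbp3, Igfbp4 and Igfbp5. The members were chosen by name, and each of the 7 matched 1 of the 56982 features of both deposited matrices. The study measured single-cell transcriptomes of 2 hindlimb libraries of strain FVB, named dual-enSERT-2 and dual-enSERT-1. Both genotypes carry a pair of fluorescent reporters at the H11 insertion site, each under a copy of the ZRS, which is the enhancer that controls Shh in limbs. The reference ZRS drives mCherry and the ZRS404G>A allele drives eGFP. Between the reporters of dual-enSERT-2 the genotype names an element SI, and it gives an element B at both outer ends (H11 B-ZRS-mCherry, then SI, then ZRS404G>A-eGFP-B). That of dual-enSERT-1 has neither (H11 ZRS-mCherry/ZRS404G>A-eGFP). What B and SI stand for is not spelled out in the labels. No library without reporters was analysed here, and whether a library came from 1 embryo or from pooled embryos is not given. With 1 library per genotype there is no replicate, so no test was run, and every interval covers counting error only.

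IGF1 and IGF2 are secreted growth factors that act through IGF1R, a receptor tyrosine kinase that signals through the IRS adaptors to PI3 kinase and AKT. IGF2R binds IGF2 and carries it to lysosomes, and it also sorts mannose-6-phosphate-tagged enzymes. The binding proteins hold IGFs outside the cell and can either limit or prolong their access to the receptor. In the limb bud, IGF signalling is known for its part in the growth of mesenchyme and in the function of the apical ectodermal ridge, the Fgf8-expressing rim of ectoderm that keeps the bud growing.

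All 7 genes are protein-coding, and their positions on GRCm39 (mm39) come from GENCODE M39. Igf1 lies on chromosome 10 from 87693642 to 87772904 on the plus strand. Igf1r lies on chromosome 7 from 67601518 to 67883416 on the plus strand. Igf2r, on the minus strand of chromosome 17, spans 12901293 to 12988614, and Airn overlaps 28417 bases of it on the other strand. Igfbp4 lies on chromosome 11 from 98932064 to 98945218 on the plus strand, and Igfbp3, on the minus strand of the same chromosome, spans 7156086 to 7164179. Igfbp2 (chromosome 1, 72863606 to 72891634, plus strand) and Igfbp5 (chromosome 1, 72897091 to 72914043, minus strand) are neighbours that point towards each other, with 5456 bases between their ends. Whether reads were counted by strand is not given in the sources used here. Reads of Igf2r and Airn, of Igf1 and the overlapping antisense gene Igf1os, and of other overlapping genes at Igf1r and Igfbp3 therefore cannot be told apart with certainty.

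The promoters of the neighbouring Igfbp2 and Igfbp5 are shown because these genes were the 2 members called higher in ectoderm-like than in mesenchyme-like cells, as described further on. Each sequence runs from 250 bases before to 50 bases after a start site of the RefSeq promoter table (GRCm38.p6) and was found once on chromosome 1 of GRCm39. The table lists another Igfbp2 start site, whose promoter is not shown. For Igfbp2 the one shown lies at chr1:72863389-72863688 (plus strand), and for Igfbp5 at chr1:72913975-72914274 (minus strand). Capitals mark GGGCGG (the GC box) in Igfbp2 and GCCNNNGGC (the AP-2 site) in Igfbp5, both searched on both strands.
Igfbp2: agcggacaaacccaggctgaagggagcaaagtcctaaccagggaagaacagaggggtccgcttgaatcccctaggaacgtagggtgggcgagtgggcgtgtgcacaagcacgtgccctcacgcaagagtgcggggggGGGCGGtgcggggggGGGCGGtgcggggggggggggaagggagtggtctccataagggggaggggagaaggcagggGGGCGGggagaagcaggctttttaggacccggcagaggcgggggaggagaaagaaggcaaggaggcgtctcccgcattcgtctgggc
Igfbp5: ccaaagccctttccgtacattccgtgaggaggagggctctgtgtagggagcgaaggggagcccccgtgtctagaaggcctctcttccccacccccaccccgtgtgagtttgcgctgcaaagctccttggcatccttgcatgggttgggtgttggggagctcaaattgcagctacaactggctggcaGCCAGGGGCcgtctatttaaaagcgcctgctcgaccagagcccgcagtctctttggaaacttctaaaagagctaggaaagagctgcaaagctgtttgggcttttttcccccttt
The Igfbp2 promoter shown held 3 GC boxes, starting 113, 98 and 37 bases before the start site, and no AP-2 site. The promoter at the other Igfbp2 start site held 0 GC boxes, 0 AP-2 sites and 2 E-boxes. The Igfbp5 promoter held 1 AP-2 site, starting 64 bases before the start site, and no GC box. Of the 32851 promoters in the table, 35.7% held a GC box and 16.6% an AP-2 site. Neither promoter shown held TATAAA (the TATA box, in 13.6% of promoters) or CCAAT (in 37.4%), and each held 1 E-box (CANNTG, in 72.3%). No marked site overlapped another motif searched, and a match describes these letters only.

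The dual-enSERT-2 library held 8885 barcodes with 184301053 UMIs (unique molecular identifiers, 1 per captured RNA molecule), and dual-enSERT-1 held 20508 barcodes with 298653282 UMIs. The labels give 10000 cells loaded for each, and 49 barcode sequences occurred in both libraries. After filtering, 6466 cells with a median of 25826 UMIs remained in dual-enSERT-2 and 15877 cells with a median of 13938 UMIs in dual-enSERT-1. Clusters were made without the 7 members, and were named from marker lists. Mesenchyme-like cells numbered 3798 and 12939, erythroid-like cells 1636 and 243, ectoderm-like cells 182 and 429, muscle-like cells 68 and 549, macrophage-like cells 56 and 57, and endothelial-like cells 104 and 204, in dual-enSERT-2 and dual-enSERT-1. A further 622 and 1456 cells in shallow clusters stayed unnamed. The class names rest on these marker lists, so marker levels within a class are no separate support for its name. A level in CPM is the UMIs of a gene per 1000000 UMIs, summed over all cells of the class, and carries a 95% Poisson interval. Summed mesenchyme markers stood at 1888 and 2128 CPM in mesenchyme-like cells, against 333 and 296 CPM in ectoderm-like cells. Summed ectoderm markers stood at 3645 and 2825 CPM in ectoderm-like cells, against 14.1 and 27.3 CPM in mesenchyme-like cells. In their own classes, endothelial markers summed to 3386 and 3515 CPM and macrophage markers to 2800 and 5271 CPM. A fold between cell groups was called when its log2 was at least 0.58 in the same direction in both libraries, among features at 20 CPM or more in either cell group in both. Log2 folds carry a pseudocount of 1 CPM, which understates the folds of low genes.

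Among the cell classes, the ligand Igf1 was higher in mesenchyme-like than in ectoderm-, endothelial- and erythroid-like cells, Igfbp2 and Igfbp5 were highest in ectoderm-like cells, and Igfbp3, Igfbp4 and Igf2r were highest in endothelial-like cells. Igf1r was spread over ectoderm-, muscle- and mesenchyme-like cells at similar levels. These placements of the highest class held in both libraries except for Igf1, whose highest class was muscle-like in dual-enSERT-2 and mesenchyme-like in dual-enSERT-1. The plot of levels by class shows all 7 genes.

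**Figure D1:**
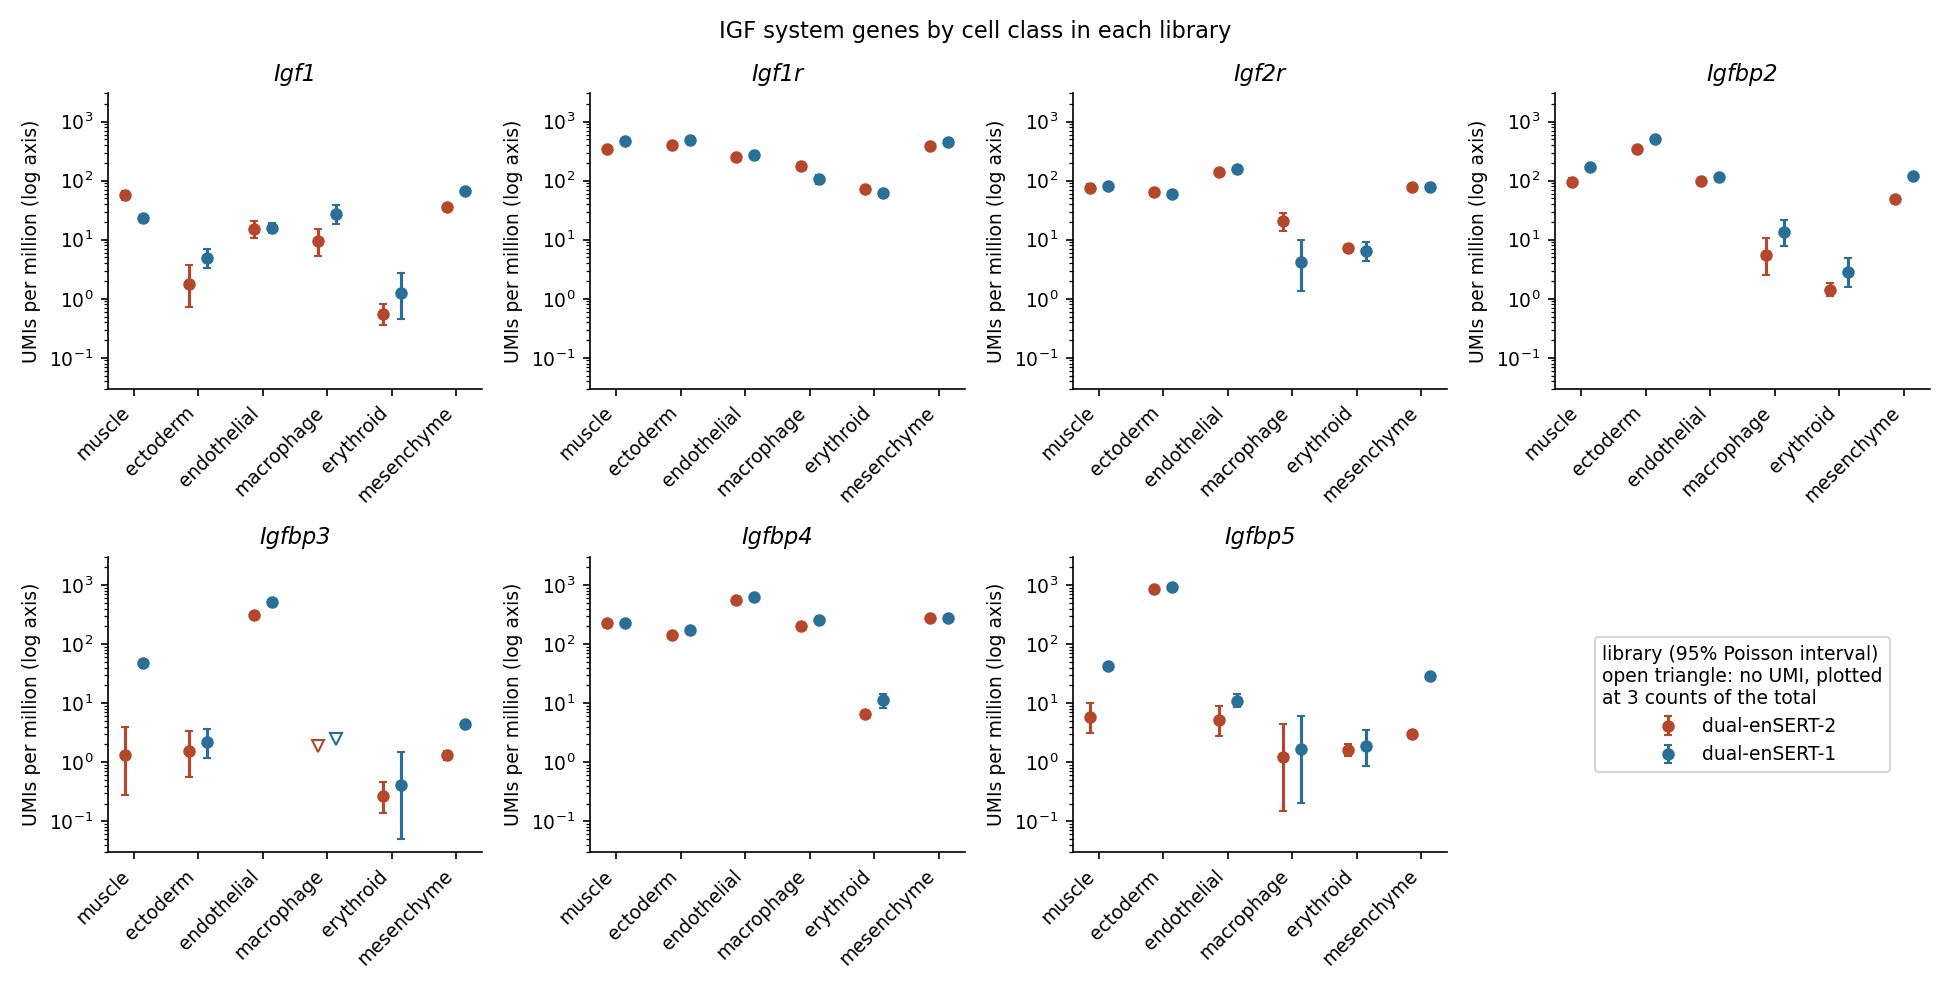
Level of each member in each cell class, in CPM on a log axis, with dual-enSERT-2 left of dual-enSERT-1 and 95% Poisson intervals as bars. Igfbp5 reaches 866 and 939 CPM in ectoderm-like cells and Igfbp3 reaches 311 and 517 CPM in endothelial-like cells, while Igf1r stays within 1 order of magnitude over all classes.

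Igf1 stood at 56.8 CPM (47.4 to 67.6) in muscle-like cells, against 36.1 CPM (35.0 to 37.3) in mesenchyme-like cells of dual-enSERT-2. In dual-enSERT-1 it stood at 23.0 CPM (20.3 to 26.1) in muscle-like cells, against 65.7 CPM (64.6 to 66.8) in mesenchyme-like cells. The libraries thus ordered these classes oppositely. Igf1 was called lower in ectoderm-like cells, at 1.80 and 4.85 CPM, which are 0.0499 (0.0201 to 0.103) and 0.0738 (0.0502 to 0.105) of the mesenchyme level. Endothelial-like cells held 14.9 and 15.8 CPM of Igf1, and macrophage-like cells held 9.36 and 26.9 CPM, in dual-enSERT-2 and dual-enSERT-1, and the intervals of these neighbouring classes overlapped in dual-enSERT-2. Those of macrophage- and muscle-like cells overlapped in dual-enSERT-1. At 5000 UMIs per cell, Igf1 was seen in 14.3% and 18.6% of mesenchyme-like cells, against 0.184% and 0.412% of erythroid-like cells. Without thinning the shares were 41.5% and 31.2% of mesenchyme-like cells, against 1.53% and 2.47% of erythroid-like cells. Thinning left out 42 and 118 mesenchyme-like cells that had fewer UMIs. Erythroid-like cells had median depths of 27306.5 and 19376 UMIs, against 27318.5 and 14530 UMIs in mesenchyme-like cells, and their share is read as background here. Their 10 marker genes made up 582143 and 682043 CPM there, which lowers the level and share of every other gene. This background is therefore a rough guide.

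Igf1r, the signalling receptor, stood at 403 and 482 CPM in ectoderm-like cells, against 387 and 460 CPM in mesenchyme-like cells. The intervals of these classes overlapped in dual-enSERT-2 (384 to 424 and 383 to 390.2 CPM), and in dual-enSERT-1 those of ectoderm- and muscle-like cells overlapped, as did those of muscle- and mesenchyme-like cells. It was called lower in endothelial-like cells, at 253 and 274 CPM, and in macrophage-like cells, at 179 and 107 CPM. The endothelial call lay at its threshold in dual-enSERT-2, with a log2 fold of -0.61, and was not made with at least 2000 genes per cell (-0.57), with doublets kept (-0.50) or at Leiden resolution 2 (-0.54). Erythroid-like cells still held 71.1 and 61.5 CPM, so Igf1r had UMIs in every class. Igf2r, the scavenging receptor, stood at 139.5 CPM (125 to 155) and 157 CPM (147 to 167) in endothelial-like cells, against 77.2 and 77.7 CPM in mesenchyme-like cells, ratios of 1.81 (1.62 to 2.01) and 2.01 (1.88 to 2.15). With a mean over cells its log2 fold in dual-enSERT-2 was 0.34, beside 0.85, and it was not called. It was the member whose level in mesenchyme-like cells differed least between the libraries. Macrophage-like cells held 20.6 CPM in dual-enSERT-2 and 4.21 CPM in dual-enSERT-1.

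Of the binding proteins, Igfbp2 stood at 344 CPM (326 to 363) and 508 CPM (491 to 526) in ectoderm-like cells, against 49.4 and 121 CPM in mesenchyme-like cells, ratios of 6.96 (6.55 to 7.39) and 4.19 (4.04 to 4.34). Muscle-like cells came between, with 95.3 and 174 CPM. Igfbp5 stood at 866 and 939 CPM in ectoderm-like cells, against 3.03 and 29.0 CPM in mesenchyme-like cells, ratios of 285 (255 to 321) and 32.4 (31.3 to 33.6). It was seen in 84.9% and 80.5% of ectoderm-like cells, against 1.30% and 9.54% of mesenchyme-like cells. Without thinning these shares were 89.6% and 78.3%, against 6.50% and 15.6%. The thinned ectoderm shares cover the 152 of 182 and 318 of 429 cells with at least 5000 UMIs, and the unthinned shares cover all of them. The mesenchyme share of dual-enSERT-2 is close to the 0.920% of its erythroid-like cells, whereas in dual-enSERT-1 the erythroid-like share was 0.823%. The mesenchyme level of Igfbp5 in dual-enSERT-2, and so its ratio of 285, therefore lies near this background, though above it. Erythroid-like cells of that library held 1.61 CPM (1.26 to 2.02) of Igfbp5, against 3.03 CPM (2.71 to 3.38) in mesenchyme-like cells. With a mean over cells the log2 fold of Igfbp5 in dual-enSERT-1 was 4.26, beside 4.97.

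Igfbp3 was the most restricted member towards vessels. It stood at 311 CPM (290 to 334) and 517 CPM (499 to 536) in endothelial-like cells, against 1.30 and 4.41 CPM in mesenchyme-like cells, ratios of 239 (199 to 288) and 117 (109 to 127). Muscle-like cells held 1.34 CPM of Igfbp3 in dual-enSERT-2 and 47.7 CPM in dual-enSERT-1, and no UMI was seen in 56 and 57 macrophage-like cells, which allows up to 1.87 and 2.52 CPM. Igfbp4 stood at 568 and 630 CPM in endothelial-like cells, against 278 and 273 CPM in mesenchyme-like cells, ratios of 2.04 (1.93 to 2.15) and 2.31 (2.23 to 2.39). It was called lower in ectoderm-like cells, at 145 and 175 CPM, but remained far above the 6.52 and 11.1 CPM of erythroid-like cells. That call was not made in dual-enSERT-1 with doublets kept (log2 -0.45) or, as an alternative added after seeing the data, without shallow clusters (-0.57), beside -0.64. Summed erythroid markers in endothelial-like cells stood at 22475 CPM in dual-enSERT-2, against 2128 CPM in dual-enSERT-1, and the part of that in their levels was not tested.

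Set beside all features, ectoderm-like over mesenchyme-like cells had 6 of 7 members at 20 CPM, of which 2 were called higher (10.1% of 7357 features were) and 2 called lower (9.23%). Endothelial-like over mesenchyme-like cells also had 6 members at 20 CPM, with 3 higher (17.7% of 7570 features) and 2 lower (21%). In the other 3 classes 5 members reached 20 CPM. Macrophage-like cells had 0 members higher (17.7% of 7706 features) and 4 lower, namely Igf1, Igf1r, Igf2r and Igfbp2 (20.4%). Muscle-like cells had 0 members called higher (2.73% of 6948 features) or lower (5.38%). Erythroid-like cells had 0 members higher (3.92% of 6863 features) and 5 lower, where 88.1% of features were lower, so that count is near the background. Igfbp3 and Igfbp5 missed 20 CPM in at least 1 library in each of these 3 contrasts, in muscle-like cells through dual-enSERT-2 alone. Summed mesenchyme markers in macrophage-like cells stood at 324 CPM in dual-enSERT-2, against 183 CPM in dual-enSERT-1. Ectoderm-like cells held 333 and 296 CPM of them in sum, with other markers leading. In dual-enSERT-2, Pdgfra and Msx1 were higher in ectoderm-like than in macrophage-like cells, and the other markers of the list were lower. Prrx1 stood at 135 CPM in macrophage-like cells of that library, against 37.4 CPM in ectoderm-like cells, and Pdgfra at 15.6 CPM, against 133 CPM. Summed megakaryocyte markers in macrophage-like cells stood at 1452 CPM in dual-enSERT-2, against 374 CPM in dual-enSERT-1, so the class differed in make-up between the libraries. The part of these markers in the macrophage-like levels was not tested.

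Of 42 other genes of the pathway, 24 to 26 reached 20 CPM in the contrasts of muscle-, ectoderm-, endothelial- and macrophage-like cells over mesenchyme-like cells. In ectoderm-like cells 3 were called higher and 1 lower. Igfbpl1, an IGF-binding-protein-like gene, stood at 52.6 and 74.2 CPM there, against 1.03 and 1.89 CPM in mesenchyme-like cells. Pik3r1, a regulatory subunit of PI3 kinase, stood at 142 and 166 CPM, against 15.9 and 12.1 CPM, and the adaptor Irs1 at 105 and 93.4 CPM, against 24.7 and 36.8 CPM. Shc1, another adaptor, was the gene called lower. In endothelial-like cells 4 were called higher and 8 lower. Foxo1, a transcription factor that AKT inhibits, stood at 128 and 124 CPM, against 19.5 and 21.4 CPM in mesenchyme-like cells, while Irs1 stood at 3.63 and 2.07 CPM and Irs2 at 5.65 and 1.72 CPM, against 35.4 and 41.8 CPM of Irs2 in mesenchyme-like cells. Stc1, Pik3r1 and Shc1 were the other genes called higher, and Pik3r2 and Igf2bp2 were among those called lower. In macrophage-like cells 5 were higher, led by Pik3r1 (84.2 and 78.2 CPM), and 5 lower, led by the adaptor Grb10 (117 and 42.1 CPM, against 534 and 585 CPM in mesenchyme-like cells). In muscle-like cells 3 were higher (Grb14, Pik3r1 and Foxo1) and 2 lower (Shc1 and Irs2). The adaptor Grb14 stood at 35.8 and 29.0 CPM in muscle-like cells, against 1.69 and 2.06 CPM in mesenchyme-like cells. In erythroid-like cells 1 of 22 was higher (Foxo3) and 20 lower. Tested were 26, 25, 24 and 24 pathway genes in ectoderm-, endothelial-, macrophage- and muscle-like cells. Of all features, 10.1%, 17.7%, 17.7% and 2.73% were called higher in that order, and 9.23%, 21%, 20.4% and 5.38% lower. In erythroid-like cells these shares were 3.92% and 88.1%. The macrophage- and erythroid-like counts are near these shares, as are the counts higher in ectoderm- and endothelial-like cells. The median log2 fold of the tested pathway genes in ectoderm-like over mesenchyme-like cells was -0.01 and -0.08, beside -0.09 and -0.14 over all features tested, and in endothelial-like cells -0.17 and -0.26, beside -0.18 and -0.16.

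Position in the limb mesenchyme was read from markers. Hoxa13 marks the distal autopod, Irx3 the proximal and anterior bud, Osr2 is a gene of joint and connective tissue regions, and Sox9 marks skeletal progenitors. Cells were thinned to 5000 UMIs to score a marker, and all UMIs of the scored cells were then pooled. Of 3756 and 12821 mesenchyme-like cells with at least 5000 UMIs, a Hoxa13 UMI was seen in 10.3% (9.30 to 11.3) and 23.5% (22.7 to 24.2), an Irx3 UMI in 0.879% (0.606 to 1.23) and 1.77% (1.55 to 2.01), an Osr2 UMI in 4.23% (3.61 to 4.93) and 17.1% (16.4 to 17.8), and a Sox9 UMI in 26.3% (24.8 to 27.7) and 47.1% (46.2 to 48.0). Without thinning these shares were 25.7% and 38.8% for Hoxa13, 2.82% and 3.996% for Irx3, 13.01% and 25.3% for Osr2, and 55.5% and 63.5% for Sox9. The markers sorted other position genes too. Meis2, a proximal gene, stood at 29.3 and 14.5 CPM in Hoxa13-positive cells, against 196 and 205 CPM in Hoxa13-negative cells, and at 735 and 568 CPM in Irx3-positive cells, against 173 and 146 CPM in Irx3-negative cells.

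Among the 5 members at 20 CPM, Igf1 had the largest fold with Hoxa13 in both libraries. It stood at 5.82 and 8.29 CPM in Hoxa13-positive cells, against 39.8 and 86.6 CPM in Hoxa13-negative cells, ratios of 0.146 (0.113 to 0.186) and 0.0957 (0.0868 to 0.105). In Irx3-positive cells it stood at 56.8 and 306 CPM, against 35.9 and 61.1 CPM in Irx3-negative cells, ratios of 1.58 (1.17 to 2.09) and 5.01 (4.71 to 5.32). Igf1 was thus low distally and high proximally in both libraries, though its proximal level in dual-enSERT-2 rests on 33 cells. With Irx3 the ratio of Igfbp4 in dual-enSERT-2 was larger, at 1.78, and Igfbp5, which missed 20 CPM in dual-enSERT-2, had a log2 fold of -2.84 in dual-enSERT-1, beside 2.31 for Igf1. The log2 fold of Igf1 with Irx3 in dual-enSERT-2 was 0.65, and was 1.47 without thinning, 1.46 with thinning to 2000 UMIs and 1.76 with detection at 2 UMIs. Cells with Hoxa13 but no Irx3 held 0.100 (0.0684 to 0.148) and 0.0260 (0.0233 to 0.0291) of the Igf1 level of cells with Irx3 but no Hoxa13. On the log2 scale these were -3.11 and -5.10, and they were -4.78 in dual-enSERT-2 and -6.02 in dual-enSERT-1 with detection at 2 UMIs, and -4.06 in dual-enSERT-1 with doublets kept.

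Igfbp4 had the same directions. Its span was smaller than that of Igf1 with Hoxa13 in both libraries and with Irx3 in dual-enSERT-1, but not with Irx3 in dual-enSERT-2. It stood at 413 CPM in the 227 Irx3-positive cells of dual-enSERT-1, against 270.04 CPM in Irx3-negative cells, and its ratios were 1.78 (1.61 to 1.96) in dual-enSERT-2 and 1.53 (1.45 to 1.61) in dual-enSERT-1. In Hoxa13-positive over Hoxa13-negative cells its ratios were 0.757 and 0.646, which missed the threshold in dual-enSERT-2. Cells with Hoxa13 but no Irx3 held 0.449 (0.404 to 0.4999) and 0.469 (0.444 to 0.495) of the level of cells with Irx3 but no Hoxa13. Igf1r ran the other way by less, with Hoxa13-positive over Hoxa13-negative ratios of 1.17 (1.14 to 1.20) and 1.12 (1.10 to 1.14). The ratios of Igf2r were 1.03 (0.957 to 1.10) and 0.861 (0.829 to 0.893). Igfbp2 stood at 51.0 and 267 CPM in Irx3-positive cells, against 49.4 and 119 CPM in Irx3-negative cells, so that it passed the threshold in dual-enSERT-1 alone. The plot of folds by position marker shows these values.

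**Figure D2:**
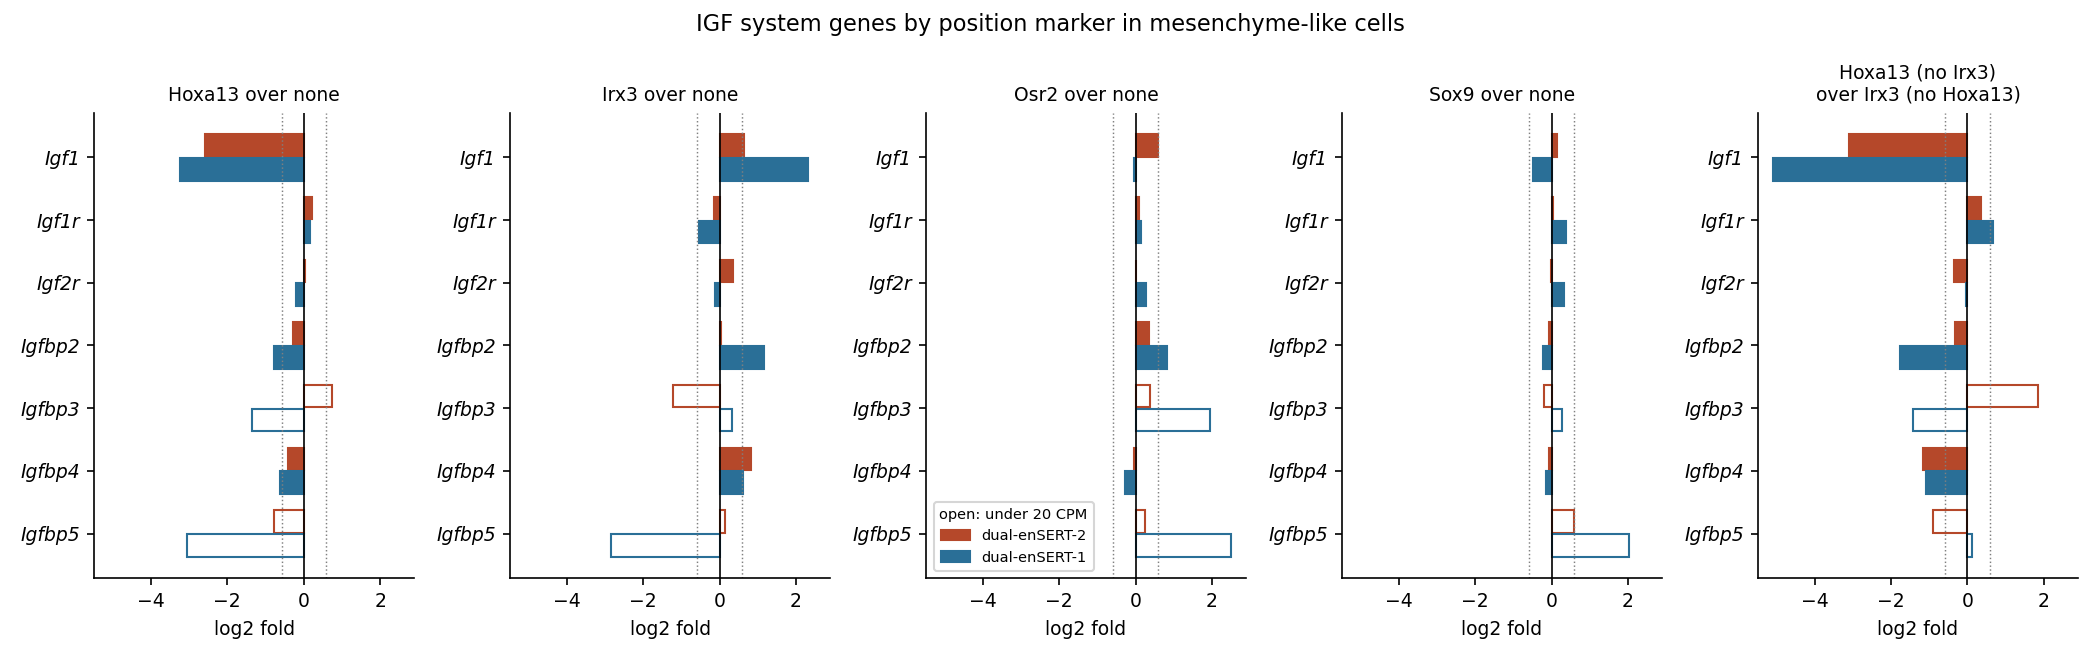
Log2 fold of each member in mesenchyme-like cells that have a UMI of a position marker over those that lack one, and between cells with Hoxa13 but no Irx3 and cells with Irx3 but no Hoxa13, with dual-enSERT-2 above dual-enSERT-1. Dotted lines stand at -0.58 and 0.58, and both bars of a gene are open where it missed 20 CPM in both cell groups of at least 1 library. Igf1 passes the lines in both libraries in the Hoxa13, Irx3 and combined panels, and Igfbp5 has its longest positive bars in dual-enSERT-1 for Osr2 and Sox9.

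In each position comparison 5 of 7 members reached 20 CPM, and Igfbp3 and Igfbp5 did not. By these calls 0 members were higher with Hoxa13 (1.17% of 6818 features were) and 1 was lower (1.45%). With Irx3, 2 were higher (1.19% of 6827 features) and 0 lower (1.44%). With Osr2, 0 were higher (1.23% of 6802 features) or lower (0.897%), and with Sox9, 0 were higher (0.589% of 6795 features) or lower (0.515%). In cells with Hoxa13 but no Irx3 over cells with Irx3 but no Hoxa13, 0 were higher (3.03% of 6925 features) and 2 lower (2.71%). The Irx3 calls depend on settings. Igf1 missed the threshold at log2 0.47 in dual-enSERT-2 with a mean over cells, and Igfbp4 missed it at 0.53 in dual-enSERT-2 without thinning and at 0.50 in dual-enSERT-1 with doublets kept. With doublets kept, the log2 fold of Igf1 with Hoxa13 in dual-enSERT-1 was -2.31, beside -3.24 without them. Of the 42 pathway genes, 0 were called with Hoxa13, Irx3 or Sox9 alone. Igf2, the other IGF ligand, was called higher with Osr2 (31.5 and 56.6 CPM, against 17.9 and 28.7 CPM in Osr2-negative cells) and lower in cells with Hoxa13 but no Irx3 (12.3 and 17.03 CPM, against 21.3 and 40.6 CPM in cells with Irx3 but no Hoxa13). Gm49394 covers all 16192 bases of Igf2 on the same strand, so reads of these genes may have been split or left out, and the level of Igf2 is uncertain.

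Some members varied with the skeletal markers in dual-enSERT-1. There, Igfbp5 stood at 100.2 CPM in Osr2-positive cells, against 16.8 CPM in Osr2-negative cells, a ratio of 5.95 (5.65 to 6.27). With Sox9 it stood at 50.7 CPM, against 11.8 CPM without, a ratio of 4.31 (4.05 to 4.58). The same gene in dual-enSERT-2 stood at 3.72 CPM in Osr2-positive cells, against 2.998 CPM, and at 4.34 CPM in Sox9-positive cells, against 2.57 CPM, all under 20 CPM. Igfbp3 stood at 1.97 CPM or less in every mesenchyme comparison of dual-enSERT-2 with Osr2 or Sox9, and at 13.8 CPM in Osr2-positive cells of dual-enSERT-1, against 2.82 CPM in Osr2-negative cells. Igfbp2 stood at 62.8 and 193 CPM in Osr2-positive cells, against 48.8 and 109 CPM in Osr2-negative cells, and passed the threshold with Osr2 in dual-enSERT-1 alone. Igf1 passed it with Osr2 in dual-enSERT-2 alone, at 53.8 CPM, against 35.3 CPM, while dual-enSERT-1 held 63.9 CPM, against 65.9 CPM.

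Grouping cells by all 4 markers at once gave 5 groups with at least 50 cells in both libraries. Cells with Hoxa13 alone held 5.16 and 7.18 CPM of Igf1, the lowest level of the 5 groups in both libraries. Cells with Osr2 and Sox9 held 51.1 and 40.2 CPM, and those with Osr2 alone held 57.8 and 99.7 CPM. Cells with none of the markers held 39.0 and 98.8 CPM. For Igfbp5, the group with Osr2 and Sox9 held 5.82 CPM (3.18 to 9.76) in 84 cells of dual-enSERT-2 and 138 CPM (133 to 144) in 1371 cells of dual-enSERT-1. Igfbp4 was lowest with Hoxa13 alone, at 213 and 178 CPM, and stood at 290 and 340 CPM in cells with none of the markers. Among these 5 groups, Igf1r was highest in dual-enSERT-1 with Osr2 and Sox9, at 553 CPM (542 to 565). In dual-enSERT-2 its highest level of the 5 was 448 CPM (435 to 461) with Hoxa13 alone. Cells with Hoxa13 and Sox9 numbered 26 in dual-enSERT-2 and so fell outside the 5 groups. In dual-enSERT-1 the 1070 such cells held a higher Igf1r level, 587 CPM (576 to 598).

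**Figure D3:**
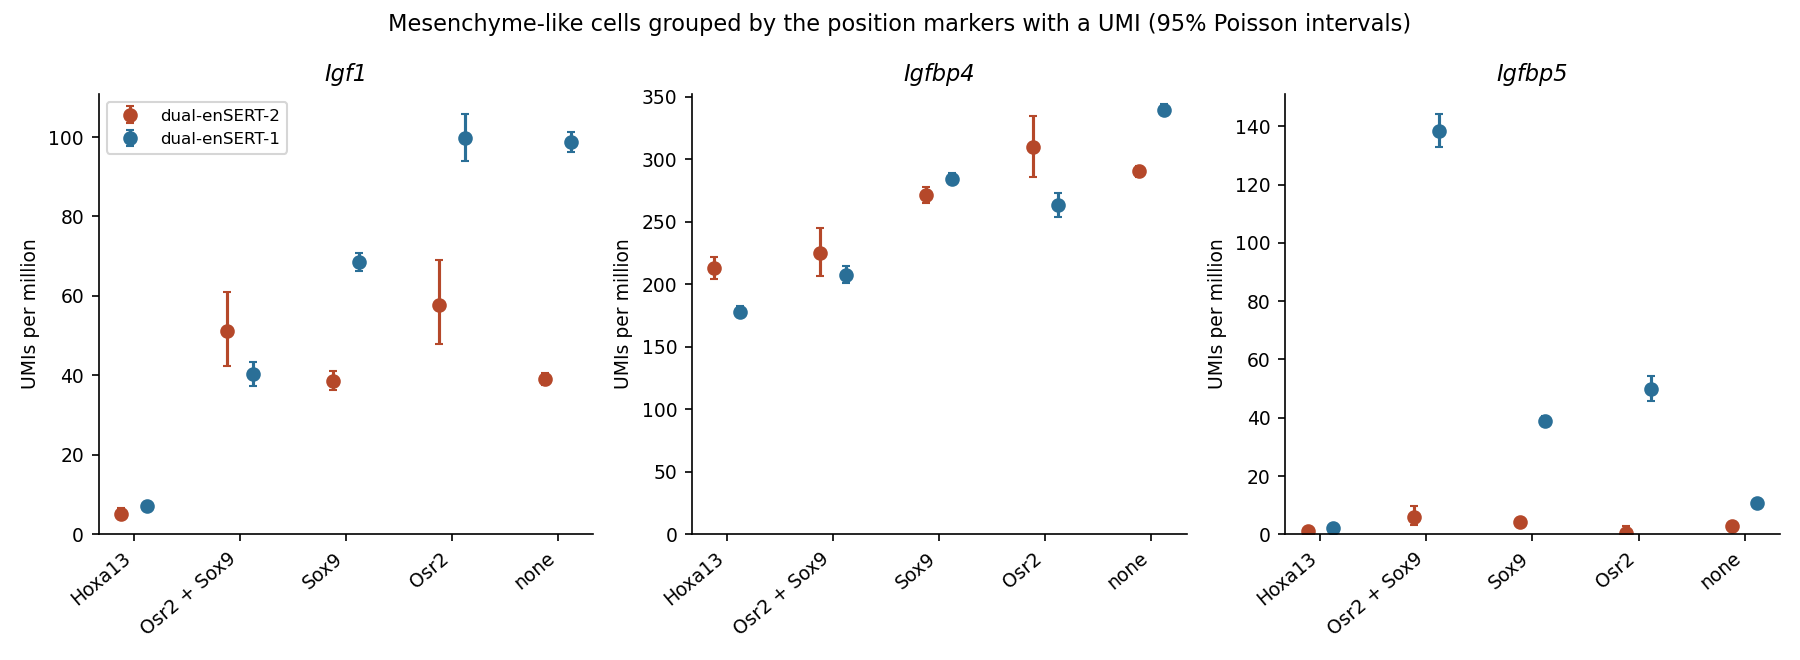
Levels of Igf1, Igfbp4 and Igfbp5 in CPM in mesenchyme-like cells grouped by which of Hoxa13, Irx3, Osr2 and Sox9 had a UMI, with dual-enSERT-2 left of dual-enSERT-1 and 95% Poisson intervals as bars. Igf1 is lowest with Hoxa13 alone in both libraries, at 5.16 and 7.18 CPM, and Igfbp5 reaches 138 CPM with Osr2 and Sox9 in dual-enSERT-1 and 5.82 CPM in dual-enSERT-2.

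The mesenchyme clusters of each library, made without the members and position genes, give levels without a position marker being chosen. In dual-enSERT-2, Igf1 ranged from 4.61 CPM in the cluster led by Tfap2b, Evx1os and Hoxa13 to 71.3 CPM in that led by Meox2. In dual-enSERT-1 it ranged from 2.05 CPM in a cluster led by Sorcs1 and Evx2 to 245 CPM in one led by Lrrc7, Nalf1 and Smoc2. Irx3 was among the 10 leading genes of that last cluster over all other clusters. Its Igfbp4 level was 215 CPM, below the 273 CPM of all mesenchyme-like cells of dual-enSERT-1, unlike the Irx3 contrast above. Igfbp4 reached 605 and 696 CPM in 2 dual-enSERT-1 clusters, led by Calb2 and by Nell1 with Isl1 among its leading genes, and 444 CPM in 2 dual-enSERT-2 clusters, led by Tbx2 with Shh and by Plcl1 with Meis2. Igfbp5 reached 221 CPM in a dual-enSERT-1 cluster led by the cartilage genes Cnmd, Matn4 and Col9a2, and 130 CPM in one led by Igfbp3 and Nrk. Igfbp3 reached 28.3 CPM in that second cluster. No mesenchyme cluster of dual-enSERT-2 exceeded 6.76 CPM of Igfbp5. A dual-enSERT-2 cluster of 105 cells led by Rmst, mt-Rnr2 and mt-Rnr1 held 1198 CPM of Igf1r, beside 281 to 447 CPM in the other 8 clusters of that library. Its median of 10048 UMIs was the lowest of them, and the part of depth or RNA quality in that level was not tested.

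The apical ridge was read from Fgf8 UMIs in ectoderm-like cells thinned to 5000 UMIs. This covers 152 of 182 and 318 of 429 ectoderm-like cells, as the others had fewer UMIs. Igfbp5 stood at 1065 and 1925 CPM in the 59 and 70 Fgf8-positive cells, against 705 and 586 CPM in the 93 and 248 Fgf8-negative cells, ratios of 1.51 (1.41 to 1.62) and 3.28 (3.12 to 3.46). Of the 5 members at 20 CPM it was the 1 member called higher (7.44% of 7149 features were), and 0 were called lower (4.85%). Without thinning the log2 fold in dual-enSERT-2 was 0.57, beside 0.59 with it, so the call lies at its threshold there. Igfbp2 stood at 389 and 414 CPM in Fgf8-positive cells, against 316 and 569 CPM in Fgf8-negative cells, and the libraries differed in direction. Igf1r had ratios of 1.01 (0.910 to 1.12) and 1.38 (1.28 to 1.49). Igf1 stayed at 5.15 CPM or less on both sides. Of the 42 pathway genes 28 reached 20 CPM, 4 were called higher and 0 lower. Igfbpl1 stood at 119.9 and 263 CPM in Fgf8-positive cells, against 0.475 and 1.40 CPM in Fgf8-negative cells. Irs1 stood at 163 and 173 CPM, against 58.4 and 66.6 CPM, Pik3r1 at 202 and 345 CPM, against 93.0 and 99.4 CPM, and the AKT target Foxo3 at 40.4 and 60.7 CPM, against 26.1 and 24.8 CPM.

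**Figure D4:**
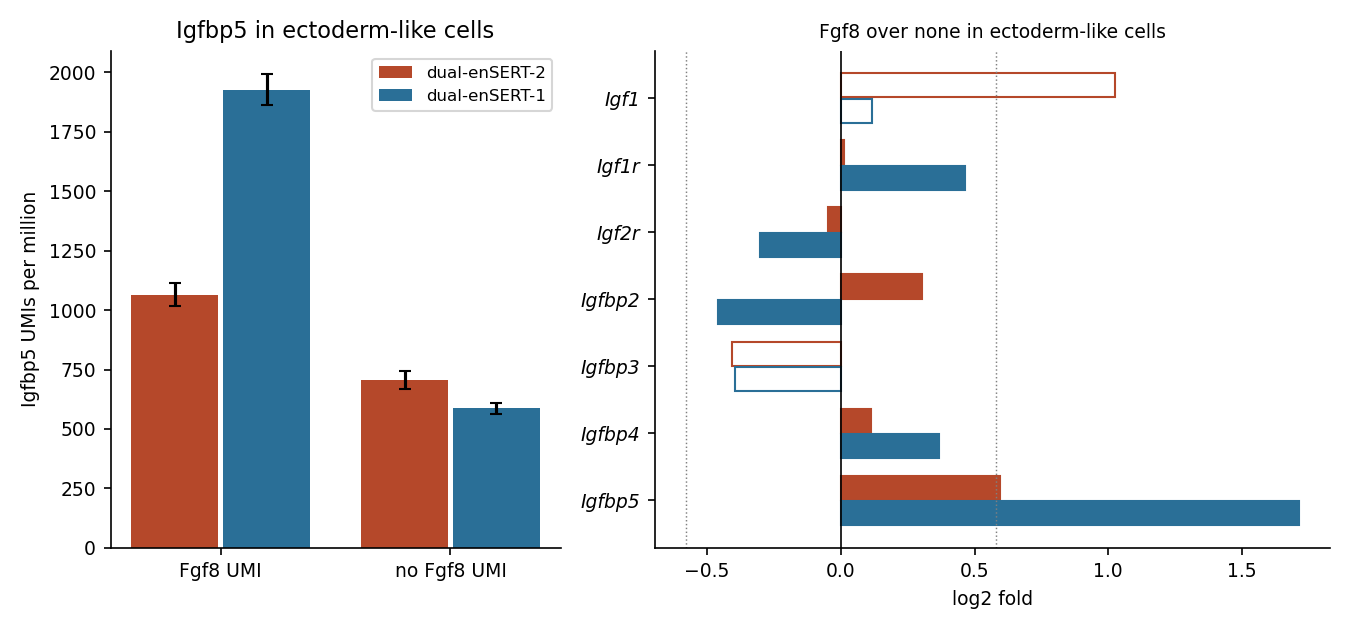
Left, level of Igfbp5 in CPM in ectoderm-like cells with and without an Fgf8 UMI, with 95% Poisson intervals; right, log2 fold of each member with over without an Fgf8 UMI, with dotted lines at -0.58 and 0.58 and open bars for genes under 20 CPM on both sides in at least 1 library. Igfbp5 stands at 1065 and 1925 CPM with Fgf8 in dual-enSERT-2 and dual-enSERT-1, against 705 and 586 CPM without.

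Committed muscle cells were read as those with a Myod1 or Myog UMI after thinning to 5000 UMIs. They were 1 of 68 muscle-like cells in dual-enSERT-2 and 109 of 474 in dual-enSERT-1 with at least 5000 UMIs. The dual-enSERT-2 cell held 3 UMIs of Igfbp5, so the single member called higher (1.18% of 6629 features were, and 0 members were lower, beside 0.83%) rests on that cell. Within dual-enSERT-1, Igfbp3 stood at 96.7 CPM (85.0 to 109.5) in cells with Myod1 or Myog, against 33.4 CPM in the other muscle-like cells, a ratio of 2.89 (2.42 to 3.45). Igfbp5 stood at 73.6 CPM, against 33.5 CPM, a ratio of 2.19 (1.81 to 2.65). Igf2r stood at 114 CPM, against 72.6 CPM, a ratio of 1.57 (1.36 to 1.81). Igf1 was lower, at 16.1 CPM, against 25.5 CPM, a ratio of 0.629 (0.438 to 0.882). These values describe 1 library.

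A list of 15 mitosis genes split mesenchyme-like cells into those with UMIs of at least 3 of them (3532 cells of dual-enSERT-2 and 9231 of dual-enSERT-1) and those with none (9 and 1029 cells). The first group holds most of the scored mesenchyme-like cells of both libraries, so it is not a set of mitotic cells. In dual-enSERT-1 its median depth was 15992 UMIs, against 10748 UMIs in cells with none. No member was called higher (2.18% of 6874 features) or lower (1.21%). In dual-enSERT-1, Igfbp5 stood at 14.9 CPM in cells with at least 3, against 122 CPM in cells with none, a ratio of 0.122 (0.114 to 0.131). Igfbp3 stood at 3.45 CPM, against 9.12 CPM, and Igf2r at 72.7 CPM, against 109.6 CPM. Position and skeletal markers moved with this contrast there. Osr2 stood at 40.6 CPM, against 149 CPM, Sox9 at 198 CPM, against 526 CPM, and Hoxa13 at 94.8 CPM, against 29.6 CPM. The part of these markers and of depth in the member values was not tested. Of the pathway genes, 0 of 24 were called higher and 1 lower, Igf2, at 18.5 and 29.96 CPM in cells with at least 3, against 34.0 and 53.3 CPM in cells with none. In dual-enSERT-2 this call rests on the 9 cells with none, and the level of Igf2 is uncertain as given above. A contrast added after the data were seen set cells with at least 8 of the genes over cells with at most 3, which are 1739 and 497 cells in dual-enSERT-2. In dual-enSERT-2 Igfbp5 then stood at 2.90 CPM, against 3.28 CPM. In dual-enSERT-1 it stood at 14.99 CPM, against 63.3 CPM. The other 6 members stayed within log2 -0.96 and 0.22 in both libraries.

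Between the libraries, Igfbp2 and Igfbp5 were lower in the mesenchyme-like cells of dual-enSERT-2, while Igf2r, Igfbp4 and Igf1r were close. A fold was called here at a log2 of at least 1, with 20 CPM or more in either library. Igfbp5 stood at 3.03 CPM (2.71 to 3.38) in dual-enSERT-2, against 29.0 CPM (28.2 to 29.7) in dual-enSERT-1, a ratio of 0.105 (0.0934 to 0.117). Igfbp2 stood at 49.4 CPM, against 121 CPM, a ratio of 0.407 (0.395 to 0.419). Igf1 stood at 36.1 CPM, against 65.7 CPM, a ratio of 0.550 (0.531 to 0.570) that was not called. The ratio was 0.993 (0.967 to 1.02) for Igf2r, 1.02 (1.01 to 1.04) for Igfbp4 and 0.840 (0.830 to 0.850) for Igf1r. In mesenchyme-like cells 0 members were called higher (0.506% of 7318 features) and 2 lower (1.95%). The median log2 fold of all features tested there was 0.01. Of the pathway genes, 0 of 25 were called in this class. Construct, embryo and preparation differed together, so what a difference belongs to cannot be told apart.

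Other values moved with these differences. The shares of mesenchyme-like cells with Sox9 and Osr2 UMIs given above were lower in dual-enSERT-2, and Col2a1, a cartilage gene, stood at 25.5 CPM in Sox9-positive cells of dual-enSERT-2, against 169 CPM in those of dual-enSERT-1. Within Sox9-positive cells Igfbp5 stood at 4.34 CPM in dual-enSERT-2, against 50.7 CPM in dual-enSERT-1, a ratio of 0.0857 (0.0709 to 0.103), and within Sox9-negative cells at 2.57 CPM, against 11.8 CPM, a ratio of 0.218 (0.187 to 0.253). In Irx3-positive cells the Igfbp5 ratio was 1.07 (0.194 to 3.97), with 33 cells in dual-enSERT-2. In the same Irx3-positive cells the ratio was 0.191 (0.138 to 0.258) for Igfbp2 and 0.185 (0.136 to 0.247) for Igf1. Igfbp2 had ratios of 0.428 in Sox9-positive cells and 0.386 in Sox9-negative cells. In Hoxa13-positive cells the Igfbp2 ratio was 0.527 (0.479 to 0.579), against 0.368 (0.356 to 0.380) in Hoxa13-negative cells. Igf1 had a ratio of 0.702 (0.535 to 0.907) in Hoxa13-positive cells and 0.459 (0.443 to 0.476) in Hoxa13-negative cells. Summed erythroid markers in mesenchyme-like cells stood at 3709 CPM in dual-enSERT-2, against 319 CPM in dual-enSERT-1, and their part in these differences was not tested.

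In muscle-like cells 1 member was called higher in dual-enSERT-2 (1.72% of 7169 features) and 2 were lower (3.18%). Igf1 stood at 56.8 CPM in dual-enSERT-2, against 23.0 CPM in dual-enSERT-1, a ratio of 2.47 (1.98 to 3.07), and with doublets kept the log2 fold was 0.76, beside 1.27, and was not called. Igfbp3 stood at 1.34 CPM, against 47.7 CPM, a ratio of 0.0281 (0.00579 to 0.0827), with 3 UMIs in dual-enSERT-2. Igfbp5 stood at 5.82 CPM, against 42.5 CPM, a ratio of 0.137 (0.0724 to 0.237). The libraries also differed in the state of these cells, with Myod1 or Myog UMIs in 1.47% (0.0372 to 7.92) in dual-enSERT-2 and 23.0% (19.3 to 27.1) in dual-enSERT-1. Among muscle-like cells without such a UMI, Igf1 still stood at 54.6 CPM in dual-enSERT-2, against 25.5 CPM in dual-enSERT-1, and Igfbp5 at 4.55 CPM, against 33.5 CPM. Of the pathway genes, Igf2 and Irs1 were called lower in dual-enSERT-2 in this class.

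In ectoderm-like cells 0 members were called higher (1.09% of 7446 features) or lower (1.34%), and in endothelial-like cells 0 were higher (0.568% of 7042 features) or lower (0.582%). The endothelial ratio farthest from 1 among the 5 members at 20 CPM was that of Igfbp3, 0.602 (0.556 to 0.652). Ectoderm-like Igfbp5 had a ratio of 0.922 (0.883 to 0.961), although its Fgf8-positive cells had 0.553 (0.522 to 0.586) and its Fgf8-negative cells 1.20 (1.13 to 1.28). Macrophage-like cells had 1 member higher (5.52% of 7476 features) and 1 lower (1.86%). There, Igf2r stood at 20.6 CPM, against 4.21 CPM, a ratio of 4.89 (1.90 to 16.1), and Igf1 at 9.36 CPM, against 26.9 CPM, a ratio of 0.348 (0.175 to 0.661). The mesenchyme and megakaryocyte markers given above also differed in this class, and their part was not tested. With doublets kept, the log2 fold of Igf2r there was 0.29, beside 2.05, and it was not called. In erythroid-like cells Igf1r alone reached 20 CPM, and 0 members were higher (7.76% of 2965 features) or lower (0.304%), and the median log2 fold of all features tested there was 0.47. The plot of folds between libraries shows these classes.

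**Figure D5:**
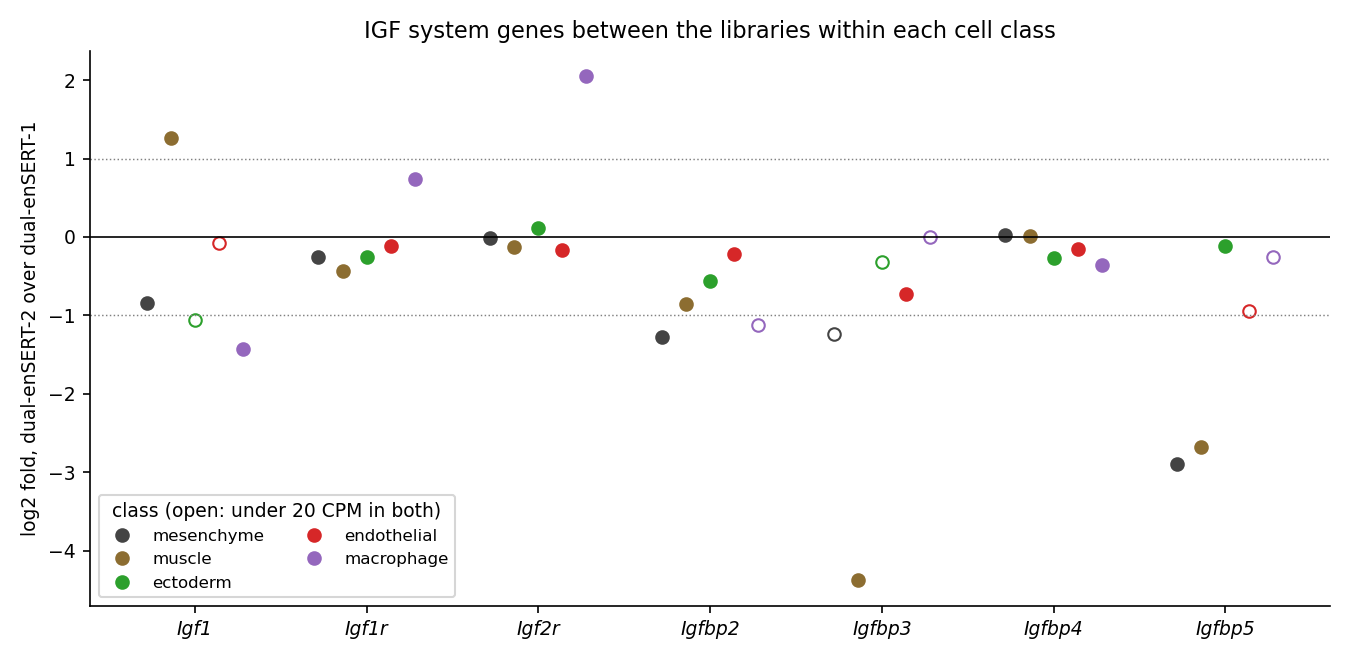
Log2 fold of each member in dual-enSERT-2 over dual-enSERT-1 within mesenchyme-, muscle-, ectoderm-, endothelial- and macrophage-like cells, with dotted lines at -1 and 1 and open points for genes under 20 CPM in both libraries. Igfbp5 lies below -1 in mesenchyme- and muscle-like cells, at -2.89 and -2.67, and near 0 in ectoderm-like cells, at -0.12.

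Across 11 cell groups (the 6 classes and the 5 marker groups of mesenchyme-like cells), the genes most like each member among 9126 features were found by the smaller of the Pearson correlations in the 2 libraries. The groups share libraries and the marker groups are parts of 1 class, so these values describe likeness only. For Igfbp5 they were Cntn5 (0.93 and 0.97), Unc13c (0.94 and 0.92) and Tafa2 (0.96 and 0.91). Igfbp3 was most like Crip2 (0.98 and 0.94), followed by Plagl1 and Mdga2. Igfbp2 was most like Ajuba (0.96 and 0.97), followed by Smad6 and Rhod. Igf1 was most like Mir99ahg (0.94 and 0.89), followed by Syt11 and Scarf2, and had the lowest such values of the 7 members. Igf1r was most like Src (0.99 and 0.99), followed by Enah and Ttc23, which lies 188857 bases from it. Igf2r was most like Fkbp10 (0.98 and 0.99), followed by the overlapping Airn, whose reads could be shared with it, and Cttn. Igfbp4 was most like Ywhab (0.99 and 0.98), followed by Coa3 and Actg1.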

How the data were processed

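Droplet-based 3' single-cell RNA-seq of E11.5 hindlimbs was analysed from 2 libraries. Raw UMI counts for each gene and barcode were deposited by the authors, per the file headers. Those headers carry Cell Ranger version 7.0.1, whereas version 3.1.0, Seurat version 4 and the build mm39 come from the submitters' processing notes. Whether intronic reads were counted is not given in the sources used here. Of 56982 feature IDs, 56236 were found in GENCODE M39.

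Cells were required to have at least 1000 genes and no more than 10% of UMIs from mitochondrial genes. Scrublet in Scanpy 1.11.5 (expected rate 8%) removed 217 doublets of dual-enSERT-2 and 1913 of dual-enSERT-1. Each library was clustered on its own (2000 variable genes, 30 principal components, 15 neighbours, Leiden resolution 1, igraph 0.11.9) without the members, the pathway list, the position genes, eGFP, mCherry and Shh. A class name needed 3 markers that were at least 2-fold higher and seen in at least 10% of cells. Clusters with a median depth below 1/3 of their library's stayed unnamed unless a marker of the class was among their 10 leading genes. CPM, the UMIs of a gene per 1000000 UMIs, was computed from the deposited counts with Python 3.11.15 and NumPy 2.4.6. Shares and ratios carry Clopper-Pearson intervals (SciPy 1.17.1), and a count of 0 allows up to 3 counts. The fold rules were tested on simulated Poisson counts at the levels and depths of the Hoxa13 groups, with 2-fold changes put in. Genes near the 20 CPM limit, smaller cell groups and variation between cells or libraries were not covered. Alternatives covered thinning, detection, doublets, filters, pseudocount, averaging, clustering and totals.

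The members and gene lists were chosen with earlier results of these data known. Named were the members, up to 4 called pathway genes per direction and contrast, and the 3 genes most like each member.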

Additional observations from a re-analysis of the deposited data

Results flagged for a closer look

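Igf1 in muscle-like over mesenchyme-like cells drew attention because the libraries passed the fold threshold in opposite directions. Its log2 fold was 0.64 in dual-enSERT-2 and -1.47 in dual-enSERT-1. The difference between the libraries was not tested, since each is 1 library. In dual-enSERT-2 the muscle-like class held 68 cells and 7 of its 8 markers, with Myog at 0, while in dual-enSERT-1 it held 549 cells and 8 of 8 markers. The summed muscle markers stood at 1069 CPM in dual-enSERT-2 and 1070.4 CPM in dual-enSERT-1.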

How the results depend on the processing

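Of 122 counts of members past the fold under alternative settings, 110 stayed within 1.5 times the reported count. Counts that stayed at 0 are among these 110, and a count can stay while its genes change. None of the 387 recomputed folds of called members changed sign (292 stayed within the counting interval of the reported fold and 95 did not). The Irx3 count of 2 became 1 without thinning, with thinning to 2000 UMIs, with detection at 2 UMIs and with doublets kept, where Igf1 was the gene called, and 1 with a mean over cells or a pseudocount of 10 CPM, where it was Igfbp4. With detection at 2 UMIs the Hoxa13 count was 2, with Igfbp2 added. The ridge count was 0 without thinning. Between the libraries, the macrophage count was 1 with a pseudocount of 10 CPM, and the erythroid count was 1 with at least 2000 genes, 3 with doublets kept and 1 with totals lacking haemoglobin and mitochondrial genes, where the cause was not tested. Alternatives without shallow clusters and with other mitosis bounds were chosen after seeing the data. No paired analysis was possible because each genotype has 1 library. Cell number limits the small groups, among them the 33 Irx3-positive cells, the 9 cells without mitosis genes and the 1 Myod1- or Myog-positive cell of dual-enSERT-2.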
